A study of Mus musculus with 86 samples.

Results

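Regions at tRNA genes were compared between asynchronous and mitotic libraries of mouse embryonic stem cells, self-renewing cells of the early embryo. The peaks of SOX2 and CTCF in asynchronous cells were merged into 146722 regions on the mouse genome (build mm10), and the 284 regions within 1 kb of an annotated tRNA gene were taken. Of these, 201 overlapped the body of a tRNA gene, and the others lay beside one. The members nearest the limit were 991, 985 and 970 bp from the tRNA genes n-TGgcc4, n-TFgaa6 and n-TIaat6. The closest regions left out lay 1001, 1002 and 1018 bp from n-TGgcc4, n-TEttc1 and n-TSgct7.

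The cells were of the strain 129S5/SvEvBrd and grew on gelatin in medium with serum and leukemia inhibitory factor. Asynchronous cultures were untreated, and mitotic cells were shaken off the dish after 6 h in 100 ng/ml nocodazole, a drug that blocks microtubule assembly and arrests cells in mitosis. Chromatin immunoprecipitation with sequencing (ChIP-seq) of SOX2, a transcription factor of the pluripotency network, and of CTCF, a zinc finger protein of insulators and loop anchors, gave 8 peak lists, with 2 asynchronous and 2 mitotic libraries per factor. Nothing in the labels says that replicates were separate cultures, so p-values measure only the spread between these libraries, which may be technical. The labels give no purity of the mitotic cells, and peak lists hold no expression with which to check cell identity. The lowest local background in each list, a measure of depth, was 1.61 to 2.62 reads per 100 bp in the SOX2 libraries and 3.36 to 3.77 in the CTCF libraries.

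Transfer RNA genes are short genes transcribed by RNA polymerase III from a promoter that lies inside the gene. The factor TFIIIC binds its A box and B box and recruits TFIIIB, which contains Tbp, Brf1 and Bdp1 and positions the polymerase at the start of the gene. Many tRNA genes sit in clusters, and TFIIIC-bound sites are also known as chromatin boundary elements. The gene names used here give the amino acid in capitals and the anticodon in lower case, so n-TLaag4 carries leucine and reads with the anticodon AAG. Copies of one tRNA are near-identical, so reads inside the genes can be shared between copies, and the handling of such reads was not given in the sources used here.

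Some tRNA genes lie in RefSeq promoter windows of neighbouring genes (GRCm38.p6), and 5 of them are shown because each illustrates one outcome in the lists. Sequences read 5′ to 3′, and capitals mark the B box, searched on both strands as GGTTCGA, any 1 base, then TCC. The gene n-TLaag4 beside Polr3e had peaks in all 8 lists, n-TRtcg5 beside Polg had both CTCF peaks in asynchronous cells but only replicate 1 in mitosis, and n-TTagt9 beside Gm38989 was called for CTCF in replicate 1 of each condition. The gene n-TAagc16 beside Gm32420, which held no exact match, had SOX2 peaks in both asynchronous libraries and in mitotic replicate 1 and a CTCF peak in replicate 1 of both conditions, and n-THgtg7 beside BC107364 had no region within 1 kb in any list. For n-TLaag4 and n-THgtg7 the windows held 71 of 82 and 62 of 72 bases, and the other genes are whole.
n-TLaag4, chr7:120917528-120917598: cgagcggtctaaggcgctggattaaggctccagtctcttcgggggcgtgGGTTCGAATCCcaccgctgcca
n-TRtcg5, chr7:79466419-79466491: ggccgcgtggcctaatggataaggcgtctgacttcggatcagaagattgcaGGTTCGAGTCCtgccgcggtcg
n-TTagt9, chr7:35234770-35234843: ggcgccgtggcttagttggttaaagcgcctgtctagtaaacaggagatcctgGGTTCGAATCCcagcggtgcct
n-TAagc16, chr13:21222586-21222657: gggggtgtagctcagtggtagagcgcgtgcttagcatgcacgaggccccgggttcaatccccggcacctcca
n-THgtg7, chr3:96452495-96452556: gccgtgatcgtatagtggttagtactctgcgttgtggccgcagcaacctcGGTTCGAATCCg

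The B box stood at bases 50 to 60 of the n-TLaag4 stretch, 52 to 62 of n-TRtcg5, 53 to 63 of n-TTagt9 and 51 to 61 of n-THgtg7. Its letters occurred in 15 of 32851 promoter windows of 300 bases (0.0457%) and in 3 of the 59 windows that a tRNA region overlapped (5.08%). CATTGT, the letters of a SOX half-site, occurred in 12.6% of all windows and in 3 of these 59 (5.08%). The letters AGGGGGC, part of a CTCF motif, occurred in 10.6% of all windows and in 10 of the 59 (16.9%). A match is only a description of these letters, and only tRNA genes beside another gene's start could be read this way.

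The window before the start of Polr3e is shown because it holds the strongest region called in every mitotic list, with the bases of n-TLaag4 in capitals (chr7:120917528-120917777, plus strand).
Polr3e: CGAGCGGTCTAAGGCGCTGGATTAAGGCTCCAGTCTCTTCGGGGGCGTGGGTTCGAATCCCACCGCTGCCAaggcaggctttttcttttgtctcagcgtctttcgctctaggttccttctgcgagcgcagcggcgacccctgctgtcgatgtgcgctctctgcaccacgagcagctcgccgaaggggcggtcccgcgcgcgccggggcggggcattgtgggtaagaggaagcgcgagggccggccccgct

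Of the 284 regions, 167 (58.8%) were called for both factors in asynchronous cells, 97 (34.2%) for SOX2 alone and 20 (7.04%) for CTCF alone. Among the 146438 other regions, 15.2% were called for both, 49.4% for SOX2 alone and 35.4% for CTCF alone. The tRNA regions were also wide, with a median of 990 bp against 494 bp, and 211 of them (74.3%) lay outside genes and gene ends, against 42.8% of the other regions. Only 14 (4.93%) lay inside a gene away from its ends, against 42.6%, and 59 (20.8%) lay within 1 kb of an end of a protein-coding gene, against 14.6%. Chromosome 13 held 99 of the tRNA regions, chromosomes 3 and 11 held 31 each, and chromosome 1 held 23.

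The regions ranked differently in the lists of the 2 factors. Fold, the authors' enrichment at the peak summit, had a median over tRNA regions of 4.78 and 4.94 in the asynchronous SOX2 lists (others 3.98 and 4.58), and of 3.57 and 3.68 in the asynchronous CTCF lists (others 5.77 and 5.53). As percentiles within each list, the median tRNA region stood at 63.5 and 56.9 for SOX2 and at 23.5 and 28.2 for CTCF, where other regions stood near the middle. Within-library differences were 13.5 and 6.90 points for SOX2 and −26.5 and −21.7 points for CTCF. Both SOX2 libraries were thus higher and both CTCF libraries lower, except that with peaks of a fold of at least 5 the signs were the opposite (−6.19, −13.5, 15.8 and 15.8), and with a −log10 q of at least 5 SOX2 replicate 2 gave −1.96. The difference between the factors was 34.3 points (exact permutation test over libraries, two-sided p = 0.333, the smallest that 2 against 2 can give), and the mean over all 4 libraries was −6.95 points (exact sign-flip p = 0.5).

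A SOX2 peak was present at 259 and 206 tRNA regions in asynchronous replicates 1 and 2, and at 93 and 20 in mitotic replicates 1 and 2. The conditions did not overlap, and the mitotic libraries differed more from each other than the asynchronous ones did. The means were 232.5 ± 37.5 and 56.5 ± 51.6 (SD, n = 2 each), 4.12-fold fewer in mitosis (exact permutation test, two-sided p = 0.333, the smallest possible). Over all regions the same ratio was 67.0-fold. All regions were chosen by their asynchronous peaks, so a lower mitotic count was favoured in advance. The test cannot measure a drop apart from that choice. Of the 20 regions of replicate 2, 19 were also called in replicate 1. The depth measure was 2.62 and 1.64 reads per 100 bp in mitotic replicates 1 and 2, and 2.48 and 1.61 in the asynchronous ones. The SOX2 library of each pair with the lower measure thus had fewer calls. The part of depth in the counts was not tested.

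A CTCF peak was present at 159 and 161 tRNA regions in the asynchronous libraries and at 141 and 102 in the mitotic ones. Both mitotic counts were below both asynchronous counts. As for SOX2, the choice of regions by asynchronous peaks favoured this direction in advance. The means were 160 ± 1.41 and 121.5 ± 27.6 (SD, n = 2 each), 1.32-fold fewer in mitosis (exact permutation test, two-sided p = 0.333, the smallest possible), against 3.85-fold over all regions. The difference of −38.5 regions was −58 without mitotic CTCF replicate 1 and −19 without replicate 2. It was −20.5 for regions that overlap the tRNA gene itself and −17.5 for peaks with a −log10 q of at least 5, and in both cases the conditions overlapped (p = 0.667, exact permutation test). All 102 regions of mitotic replicate 2 were also called in replicate 1. Here the library with fewer calls had the slightly higher depth measure, at 3.77 reads per 100 bp against 3.62 in replicate 1.

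Of the 264 tRNA regions of SOX2, 93 (35.2%, Wilson 95% interval 29.7 to 41.2%) had a mitotic SOX2 peak in replicate 1, where the share over all SOX2 regions was 1.89%. In replicate 2 it was 20 (7.58%, 4.96 to 11.4%) against 0.413% over all SOX2 regions, and 19 (7.20%) were called in both against 0.369%. Of the 187 tRNA regions of CTCF, 132 (70.6%, 63.7 to 76.7%) had a mitotic CTCF peak in replicate 1 against 26.1% over all CTCF regions. In replicate 2 it was 99 (52.9%, 45.8 to 60.0%) against 19.9%, and the same number were called in both against 19.2%. The intervals cover counting error only, and regions of one library share that library's depth.

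The share was higher at tRNA regions than at other regions in each of the 4 mitotic libraries. Other regions were called at 1.80% and 0.393% for SOX2 and at 25.97% and 19.9% for CTCF, which gave differences of 33.4, 7.18, 44.6 and 33.1 percentage points and a mean of 29.6 (exact sign-flip test over 4 libraries, two-sided p = 0.125, the smallest possible). Regions at ends of protein-coding genes with no tRNA gene within 1 kb were called at 6.00% and 1.03% for SOX2 and at 27.8% and 20.1% for CTCF. Against these the differences were 29.2, 6.55, 42.8 and 32.8 points, with a mean of 27.8 (exact sign-flip p = 0.125, the smallest possible). When other regions were weighted to the fold and width of the tRNA regions, they were called at 5.43%, 0.752%, 22.9% and 17.1%, and differences of 29.8, 6.82, 47.7 and 35.9 points were left. Among regions of both factors, tRNA regions were called at 46.7% and 10.2% for SOX2 (others 5.38% and 1.22%). For CTCF it was 77.8% and 58.1% (others 35.4% and 27.9%). Regions of SOX2 alone were also higher, at 15 and 3 of 97 against 503 and 101 of 72406 others. Regions of CTCF alone were not higher, at 2 of 20 in each replicate (10%, 2.79 to 30.1%) against 11347 and 8494 of 51796 others. Both shares of these others lie within that interval, so so few regions cannot show a difference in either direction.

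**Figure D1:**
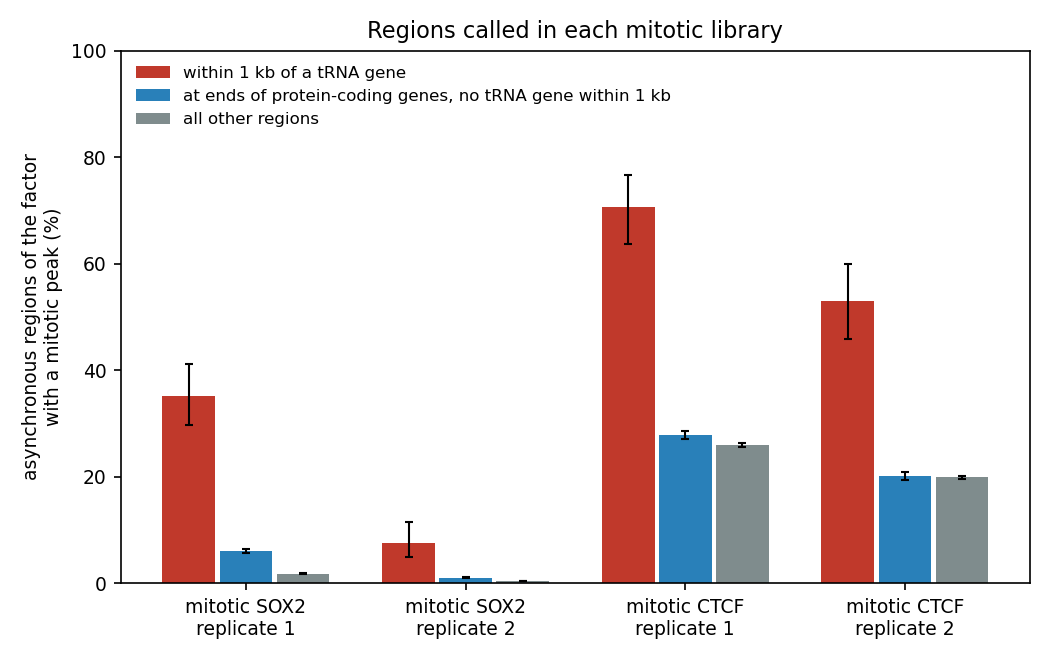
Share of asynchronous regions of a factor that had a peak of the same factor in each mitotic library (percent), for tRNA regions, regions at ends of protein-coding genes and all other regions, with Wilson 95% intervals. The tRNA bars stand highest in all 4 libraries, from 7.58% in SOX2 replicate 2 to 70.6% in CTCF replicate 1.

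Between the factors, the mean share of tRNA regions called was 21.4 ± 19.6% for SOX2 and 61.8 ± 12.5% for CTCF (SD, n = 2 mitotic libraries each). Both CTCF libraries were higher than both SOX2 libraries, by 40.4 points on average (exact permutation test, two-sided p = 0.333, the smallest possible). Antibody and depth differ between the factors and cannot be told apart from the factor here. The difference was 26.5 points without mitotic SOX2 replicate 2.

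Many tRNA regions with a weak asynchronous CTCF peak were called in mitosis. In the lowest of 5 classes of CTCF fold percentile (0 to 20), 57 and 39 of 87 tRNA regions (65.5% and 44.8%) were called in mitotic replicates 1 and 2, against 1.67% and 0.416% of other regions in that class. In the top class (80 to 100) all 30 tRNA regions were called in both replicates, against 82.6% and 71.7% of other regions. For CTCF the gap between tRNA and other regions was thus widest in the lowest class in both replicates.

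For SOX2 the calls lay mostly among strong regions. In the top class, 29 and 18 of 38 tRNA regions (76.3% and 47.4%) were called, against 7.16% and 2.39% of other regions. In the class below, 40 of 71 (56.3%) were called in replicate 1 but only 1 in replicate 2, against 2.77% and 0.2504% of other regions. In the lowest class 3 and 0 of 41 were called, and the interval for 0 reaches 8.57%.

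**Figure D2:**
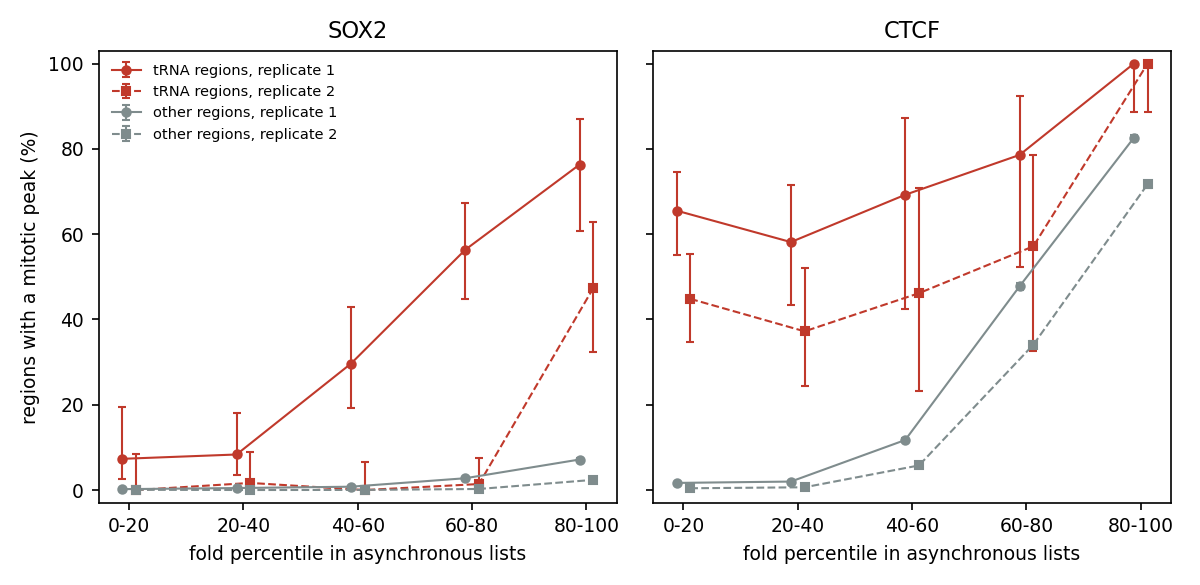
Share of regions with a mitotic peak (percent) by class of mean fold percentile in the asynchronous lists, for tRNA regions and other regions, each mitotic replicate apart, with Wilson 95% intervals. For CTCF the tRNA regions of the lowest class were called at 65.5% and 44.8% while other regions of that class were at 1.67% and 0.416%, and for SOX2 the tRNA regions reach 76.3% and 47.4% in the highest class.

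Most of the regions called in mitosis overlapped the tRNA gene itself. Of 197 SOX2 regions that overlapped a tRNA gene, 91 and 20 were called in replicates 1 and 2, whereas of 48 regions over 500 bp away none was called in either (up to 7.41% by the interval). For CTCF 126 and 94 of 160 overlapping regions were called, against 5 and 4 of 22 over 500 bp away (22.7% and 18.2%). Over all regions of each factor the shares were 1.89% and 0.413% for SOX2 and 26.1% and 19.9% for CTCF. The counts over 500 bp away are thus near the shares over all regions. Between 1 and 500 bp there were 19 SOX2 regions, of which 2 and 0 were called, and 5 CTCF regions, of which 1 was called in each replicate. Regions that overlapped a tRNA gene were wider than those beside one, with medians of 1308 bp against 443 bp over 500 bp away for SOX2.

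Peak summits do not depend on the widths of the regions. The median distance from a summit within 1 kb to the nearest tRNA gene was 99 and 83 bp in the asynchronous SOX2 lists and 43 and 25.5 bp in the mitotic ones. For CTCF it was 84 and 84.5 bp in asynchronous cells and 0 and 4 bp in mitotic cells. The mitotic lists had the shorter distances for both factors. Each list holds its own set of summits, and regions over 500 bp away were called less often in mitosis than overlapping ones. Distances at the same regions in both conditions were not tested. A summit inside the tRNA gene was found for 24.3% and 21.1% of these peaks in the asynchronous CTCF lists and for 53.5% and 49.2% in the mitotic ones. For SOX2 the shares were 14.1% and 19.6%, then 24.8% and 31.8%. The last share rests on 22 summits.

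**Figure D3:**
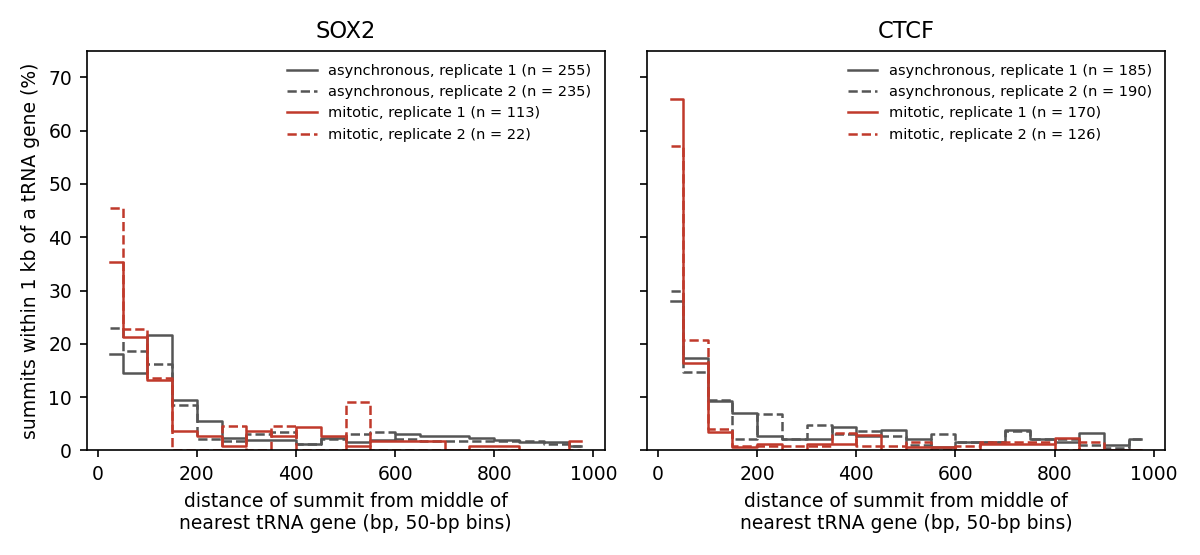
Distance of peak summits from the middle of the nearest tRNA gene (bp, 50-bp bins, summits within 1 kb of the gene) as percent of those summits in each library. Mitotic lines stand above asynchronous lines in the bin next to the tRNA gene for both factors.

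Peaks within 1 kb of a tRNA gene made up 0.311% and 0.394% of the asynchronous SOX2 lists and 5.72% and 5.64% of the mitotic ones, a 16.1-fold higher mean share. For CTCF they made up 0.284% and 0.294%, then 0.864% and 0.835%, a 2.94-fold higher mean share. The conditions did not overlap for either factor (exact permutation test, two-sided p = 0.333 each, the smallest possible). Nearly all these mitotic peaks lay in regions called for either factor in asynchronous cells. Outside them lay 0 of 113 and 0 of 23 SOX2 peaks and 1 of 174 and 1 of 128 CTCF peaks. The same share over all mitotic peaks was not counted.

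Many tRNA regions had mitotic peaks of both factors. In replicate 1, 77 of the 93 tRNA regions with a mitotic SOX2 peak also had a mitotic CTCF peak (82.8% of the SOX2 calls and 54.6% of the CTCF calls). In replicate 2 it was 15 of 20 (75% and 14.7%). Among other regions 24.9% and 16.1% of the mitotic SOX2 calls were shared with CTCF, in replicates 1 and 2, and 2.19% and 0.407% of the CTCF calls with SOX2. Mitotic CTCF peaks were themselves more frequent at tRNA regions, at 141 and 102 of 284 against 19310 and 14724 of 146438 others. Sharing beyond these frequencies was not tested. Over the 4 mitotic lists, 127 of the 284 tRNA regions had no peak, 34 had a peak in 1 list, 61 in 2, 48 in 3 and 14 in all 4. Other regions were not counted by number of lists, so these counts have no background. Of the 97 regions called for SOX2 alone in asynchronous cells, 9 and 3 had a mitotic CTCF peak, against 85 and 19 of 72406 other regions of that kind. None of the 20 called for CTCF alone had a mitotic SOX2 peak, and 1 and 0 of 51796 other such regions had one.

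The region at n-TLaag4 overlapped the start of Polr3e, which encodes a subunit of RNA polymerase III (chr7:120917253-120918771). Its SOX2 fold was 14.4 and 11.8 in asynchronous and 6.96 and 4.74 in mitotic libraries, and its CTCF fold was 12.4 and 13.1, then 9.15 and 3.68. It ranked first among the regions called in all 4 mitotic lists. Folds are the authors' values and hold within each list only.

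The region at n-TRtct4, with 4 tRNA genes within 1 kb, overlapped Aloxe3, a lipoxygenase gene, and Hes7, a gene of the segmentation clock (chr11:69121819-69125766). It had folds of 19.3 and 8.45, then 5.44 and 4.99 in mitosis for SOX2, and of 12.8 and 10.1, then 7.67 and 5.11 in mitosis for CTCF. A region at n-TKctt30 had 6 tRNA genes within 1 kb (chr19:12009156-12012941), of which n-TFgaa2 lies in a neighbouring region, with folds of 7.97 and 10.9, then 9.91 and 5.21 for SOX2, and of 11.2 and 10.99, then 10.9 and 9.08 for CTCF. Both are among the widest regions of the set, at 3948 and 3786 bp.

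Among the 14 regions called in all 4 mitotic lists, the one at n-TRtcg3 (chr13:23503304-23504411) had no CTCF peak in either asynchronous list. Its mitotic CTCF folds were 3.13 and 3.75, and its SOX2 folds were 7.93 and 7.57 in asynchronous and 5.66 and 3.10 in mitotic cells. The other 13 were called for both factors in asynchronous cells. Among them were the regions at n-TWcca2 beside Tmpo, which encodes a nuclear lamina protein, and at n-TIaat4 beside Borcs6.

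**Figure D4:**
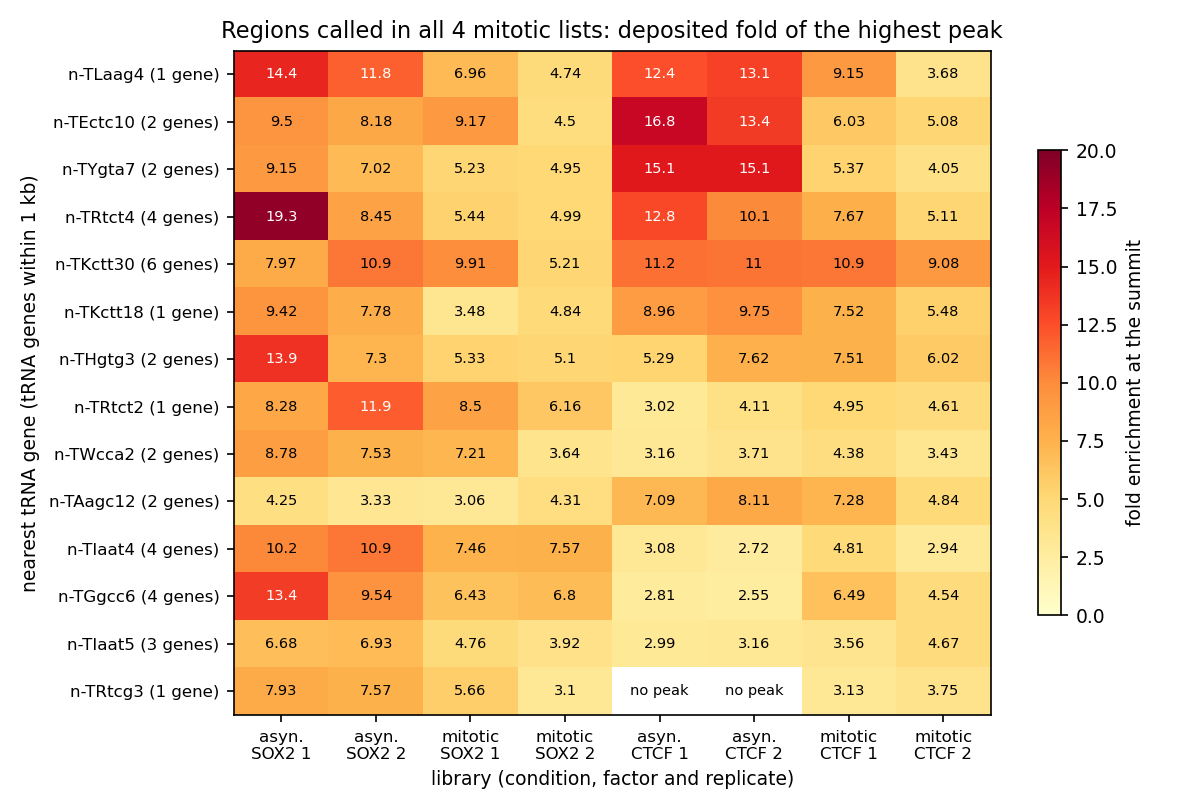
Deposited fold at the summit of the highest peak in each of the 8 lists (columns) for the 14 regions called in all 4 mitotic lists (rows, by the nearest tRNA gene and the number of tRNA genes within 1 kb). Values compare within a column only; the region at n-TRtcg3 has no asynchronous CTCF peak, and the other 13 have a peak in every list.

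SOX2 without CTCF was seen at n-TRtct5 (chr1:173389453-173390628), an arginine tRNA gene within Aim2, which encodes a sensor of cytosolic DNA. The SOX2 fold there was 21.6 and 16.3 in asynchronous and 8.50 and 10.5 in mitotic libraries, and no CTCF list had a peak. It ranked first among SOX2 regions called in both mitotic libraries. The region at n-TIaat10 on chromosome 13, with 2 tRNA genes within 1 kb, likewise had no CTCF peak, with SOX2 folds of 9.81 and 14.1 in asynchronous and 3.19 and 6.18 in mitotic cells. At n-TGccc4, beside Tia1, an RNA-binding protein gene, SOX2 folds were 11.3 and 14.1, then 5.94 and 5.33, while CTCF peaks were weak in asynchronous cells (2.24 and 2.62) and not called in mitosis.

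Some regions of high asynchronous fold had no mitotic SOX2 peak. The region 722 bp from n-TEctc12, at an end of Acp6, a lysophosphatidic acid phosphatase gene (chr3:97158879-97160343), had SOX2 folds of 21.5 and 22.9 in asynchronous cells and none in mitosis. The region at n-TKctt7, inside Cdh19, a cadherin gene, had 12.3 and 10.6 and no mitotic peak. Of the 5 strongest SOX2 regions called in neither library, 4 overlapped a tRNA gene, among them n-TKctt26, n-TDgtc11 and n-TItat14.

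For CTCF the strongest region called in both mitotic libraries lay at n-TLaag8, with 3 tRNA genes within 1 kb (chr14:51063162-51066112), and had folds of 16.4 and 16.4 in asynchronous and 13.9 and 8.65 in mitotic cells. The region at n-TScga2, beside Smarcc2, a subunit gene of the BAF chromatin remodeller, had 12.9 and 17.3, then 17.1 and 9.65. The region at n-TEctc9 (chr10:30810402-30811450) had 15.8 and 16.4, then 9.35 and 5.79, with a SOX2 peak in asynchronous replicate 1 only. The strongest CTCF regions called in neither mitotic library were weaker, with asynchronous folds from 5.09 to 9.34. They lay near n-TIaat5 at Ctc1, a telomere maintenance gene, near n-TTcgt2, and at n-TVaac1 in Ubr4, n-TKctt24 in Rinl and n-TFgaa2.

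By tRNA gene, 293 of 403 annotated genes on chromosomes 1 to 19 and X (72.7%) had a region within 1 kb. A mitotic SOX2 peak lay within 1 kb of 153 and 39 of them, and a mitotic CTCF peak within 1 kb of 210 and 164. Every gene for glutamine (16), tryptophan (8) and phenylalanine (7) had a region. The count was 23 of 24 for arginine, 16 of 17 for threonine, 20 of 22 for serine, 9 of 10 for tyrosine, and 14 of 16 each for methionine and proline. It was 21 of 25 for leucine, 18 of 22 for valine, 13 of 16 for isoleucine, 22 of 28 for glycine, 10 of 13 for asparagine and 12 of 16 for aspartate. It was lower for lysine (19 of 26), histidine (8 of 11), glutamate (14 of 20), alanine (20 of 33) and cysteine (9 of 57).

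The low count for cysteine came from chromosome 6, where 3 of 49 cysteine genes had a region, against 6 of 8 elsewhere. Without the cysteine genes of chromosome 6 the share over all isotypes was 290 of 354 genes (81.9%). Alanine genes differed by anticodon, with 13 of 13 for AGC, 3 of 9 for CGC and 4 of 11 for TGC. On chromosome 13 101 of 105 genes had a region, and on chromosome X 1 of 17. Chains of 3, 2 and 2 alanine genes on chromosome X had no region, and the alanine anticodons were not split by chromosome.

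Mitotic calls also differed between anticodons of one isotype, in counts chosen after they were seen. All 5 arginine TCT genes had a mitotic SOX2 peak within 1 kb in replicate 1 and 4 of them in replicate 2, and 4 of 5 had a mitotic CTCF peak in both. Of the 10 leucine CAG genes none had a mitotic SOX2 peak in either replicate, though 6 had an asynchronous SOX2 region, and 4 and 3 had a mitotic CTCF peak. All 5 leucine AAG genes had a mitotic SOX2 peak in replicate 1 (1 in replicate 2) and a mitotic CTCF peak in both. Neighbouring genes share regions, so genes of one cluster are not separate observations.

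**Figure D5:**
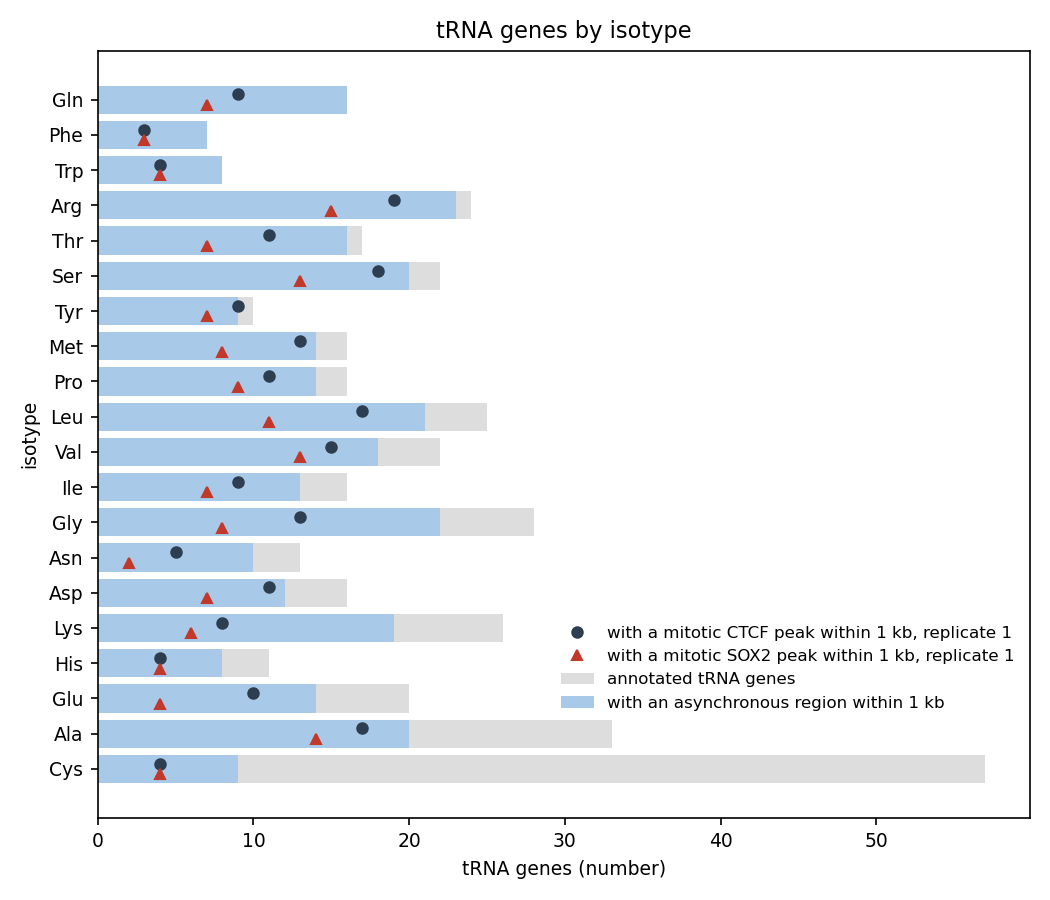
Number of tRNA genes of each isotype: annotated (grey bar), with an asynchronous region within 1 kb (blue bar), and with a mitotic CTCF peak (circle) or SOX2 peak (triangle) of replicate 1 within 1 kb. Cysteine stands apart, with 57 annotated genes and 9 with a region, while glutamine, phenylalanine and tryptophan are complete.

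Clustered tRNA genes, those with another within 10 kb, had a region in 223 of 293 cases (76.1%), and lone ones in 70 of 110 (63.6%). Of 175 SOX2 regions at clustered genes 70 and 14 were called in mitotic replicates 1 and 2, and of 89 at lone genes 23 and 6. For CTCF 89 and 71 of 122 clustered regions and 43 and 28 of 65 lone regions were called. The share was higher at clustered genes in every mitotic library, by 14.2, 1.26, 6.80 and 15.1 percentage points, with a mean of 9.33 (exact sign-flip test, two-sided p = 0.125, the smallest possible for 4 libraries). With peaks of a fold of at least 5 the mean was 1.47 points (exact sign-flip p = 0.5) and not all libraries kept the direction, and with neighbours within 2 kb as clustered it was 19.8. Regions with more tRNA genes were called more often and were also wider. For SOX2 in replicate 1, 43 of 181 regions with 1 tRNA gene within 1 kb (median width 898 bp), 29 of 56 with 2 (1410 bp) and 21 of 27 with 3 or more (1769 bp) were called. For CTCF the counts were 74 of 117, 35 of 46 and 23 of 24. The part of width in this order was not tested.

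The largest chain of tRNA genes, 22 cysteine genes at chr6:48244316-48317586, had no region. A chain of 15 genes of 7 isotypes at chr13:21907111-21940995 had 13 regions, of which 9 and 0 had a mitotic SOX2 peak and 10 and 8 a mitotic CTCF peak. A chain of the same number of genes at chr1:171064164-171081946, for aspartate, glutamate, glycine and leucine, had 5 regions, with no mitotic SOX2 peak and with CTCF peaks at 2 and 0. The chain of 14 genes at chr13:23425646-23453514 had 14 regions, with mitotic SOX2 peaks at 5 and 1 and mitotic CTCF peaks at 7 and 3. The chain of 10 genes at chr13:21234045-21279768 had 15 regions, with mitotic SOX2 peaks at 3 and 1 and CTCF peaks at 4 and 3, while a chain of 10 cysteine genes on chromosome 6 had none. Large chains thus ranged from no region to at least 1 region per gene. Of all 284 tRNA regions, 93 and 20 had a mitotic SOX2 peak and 141 and 102 a mitotic CTCF peak. Of the 146438 other regions, 1701 and 372 had a mitotic SOX2 peak and 19310 and 14724 a mitotic CTCF peak. Single chains hold few regions and were not tested against these counts.

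Beside the 72.7% of tRNA genes, a region lay within 1 kb of 17.1% of snRNA genes, 25.04% of snoRNA genes, 30.9% of miRNA genes and 5 of 69 5S rRNA genes. A mitotic CTCF peak of replicate 1 lay within 1 kb of 3.21%, 3.01% and 6.27% of the first 3 classes, of 1 5S rRNA gene and of 52.1% of tRNA genes. Protein-coding genes, which are far longer, had a region in 77.7% of cases and such a peak in 32.6%. A mitotic SOX2 peak of replicate 1 lay within 1 kb of 0.702% of snRNA, 0.301% of snoRNA and 2.04% of miRNA genes and of no 5S rRNA gene. It lay within 1 kb of 6.70% of protein-coding and 38.0% of tRNA genes. The classes were not tested against each other. All 9 matched genes of a list of other RNA polymerase III transcripts had a region. Of these, Rn7sk, whose RNA restrains the elongation factor P-TEFb, and Rmrp, the RNA of RNase MRP, had a mitotic SOX2 peak in replicate 1 only. Rn7s1 and Rn7s2, which encode the RNA of the signal recognition particle, had mitotic CTCF peaks in both replicates, and Rn7sk in replicate 1.

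Of 28 genes of the RNA polymerase III machinery all had a region within 1 kb of the gene body, and 2 and 1 had a mitotic SOX2 peak. Over all protein-coding genes 77.7% had a region, and 6.70% and 1.26% a mitotic SOX2 peak, so the machinery's SOX2 counts are near the background. The genes with a peak were Polr3e in both replicates and Polr3gl, another subunit gene, in replicate 1. A mitotic CTCF peak was present at 5 in each replicate, where the share over all protein-coding genes was 32.6% and 25.7%, and in both at Polr3a, which encodes the largest subunit, Polr3e, Gtf3c6, a TFIIIC subunit gene, and Snapc5, a gene of the SNAP complex. The peak at Polr3e is the one at n-TLaag4 described above.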

How the data were processed

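The authors deposited 1 narrowPeak list per library, called separately. MACS2 2.1.1.20160309, BWA 0.7.17, SAMtools, CASAVA 1.4 and the build mm10 are named per the submitters' processing notes; their options, filters and control libraries: not given in the sources used here. In the deposited lists fold is a ratio of summit coverage to local background, and −log10 p and −log10 q, also deposited, describe that summit. Lists began at a −log10 q between 1.31 and 1.48, that is a q of 0.05. The deposited score column was not used. The other libraries among the 86 were not analysed here.

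Overlapping intervals of the 4 asynchronous lists were merged, and a region counted as called when it shared at least 1 bp with a mitotic peak of the same factor. tRNA genes came from a RefSeq table of GRCm38.p6, which is the assembly of mm10; mitochondrial genes and 5 genes on scaffolds were left out, and strand is not in that table. A selenocysteine tRNA gene and Rn7s6 had no match by name. Local background was solved from fold and −log10 p in up to 2000 peaks per list under a Poisson model, which gave whole reads, within 0.02 in −log10 p, for 99.9% to 100% of them. Counts and shares per library were compared by two-sided exact permutation or sign-flip tests, with Wilson intervals at 95% confidence (Python 3.11.15, pandas 2.3.3, scipy 1.17.1). Overlap code was tested on simulated data.

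The regions and gene lists were chosen with earlier results of these data known. Regions were named by rule: per factor the 10 strongest called in both mitotic libraries and the 5 strongest called in neither, up to 10 called in all 4 lists, the 3 nearest to either side of 1 kb and the 5 largest chains with gaps up to 10 kb. The remaining regions of the 14 called in all 4 lists, n-TRtcg3 among them, the anticodons and the chromosome 6 split were chosen after their values were seen. Alternatives were stricter −log10 q or fold, other overlaps, distances and chain gaps, regions of both replicates, ranking by −log10 p, the strongest 10% of regions and each library left out. Equal fold and width classes, no chromosome 13 and 1 region per chain were added after the data were seen.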

Additional observations from a re-analysis of the deposited data

Results flagged for a closer look

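The rank of tRNA regions in asynchronous cells went in opposite directions in the lists of the 2 factors. Relative to all other regions the median fold percentile was 13.5 and 6.90 points higher in SOX2 replicates 1 and 2, and −26.5 and −21.7 points, that is lower, in CTCF replicates 1 and 2. The difference between the factors could not pass a threshold with 2 libraries each (exact permutation test, two-sided p = 0.333, the smallest possible), and with peaks of a fold of at least 5 all 4 signs were the opposite. Depth and antibody differ between the factors and cannot be told apart from the factor.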

How the results depend on the processing

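The signs of the mean differences in counts and shares held under the alternatives run, while the mean percentile difference of −6.95 changed sign with a fold of at least 5 (2.97) and with 1 region per chain (2.20). For mitotic against asynchronous counts, the choice of regions by asynchronous peaks favoured the sign in every setting. The number of tRNA regions was 164 with a fold of at least 5, 185 without chromosome 13 and 127 with 1 region per chain, and 192 tRNA genes had a region without chromosome 13. Regions called in both mitotic libraries numbered 9 for SOX2 and 16 for CTCF with a fold of at least 5, 12 and 65 without chromosome 13, and 58 for CTCF with 1 region per chain. Clustered minus lone, 9.33 points, was 1.47 with a fold of at least 5 (exact sign-flip p = 0.5). It was 19.8 with neighbours within 2 kb and 17.1 with 1 region per chain. With a −log10 q of at least 5 it was 8.60, away from gene ends 11.7 and without asynchronous SOX2 replicate 1 8.06 (p = 0.25 each, exact sign-flip test). In the settings named here with p over 0.125 not all 4 libraries kept the direction. The cause was not tested. The number of tRNA regions was not lower in each of these settings, at 291 without asynchronous SOX2 replicate 1 against 284.

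With each library left out in turn, the tRNA difference was 24.6 to 37.0 points against other regions and 22.9 to 34.9 against gene ends, clustered minus lone was 7.40 to 12.02, and CTCF minus SOX2 was 26.5 to 54.2, where the extremes lacked mitotic SOX2 replicate 2 and 1. The change in regions with a peak was −212.5 to −139.5 for SOX2 and −58 to −19 for CTCF, and the percentile difference was −16.0 without asynchronous SOX2 replicate 1 and −0.383 without asynchronous CTCF replicate 1. The number of regions was 285 to 291, of tRNA genes with a region 287 to 293, and of regions called in both mitotic libraries 19 throughout for SOX2 and 85 to 104 for CTCF. The mean of the mitotic median summit distances, 18.1 bp, was 9.83 to 24.2 bp, and 7.75 bp with a −log10 q of at least 5. Over all alternatives the tRNA difference against other regions was 18.6 (fold of at least 5) to 44.0 points, and against gene ends 14.8 (fold of at least 5) to 35.5.

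With the replicate block the changes were −176 and −38.5 regions, and 2 pairs cannot give an exact sign-flip p under 0.5. Replicate differences of the conditions correlated at −0.0523 for SOX2 and 0.000599 for CTCF over regions, which gives no sign of pairing by replicate number. It cannot exclude pairing, since most regions had no mitotic peak (1.89% and 0.413% of SOX2 regions had one). The gene-end comparison has no value away from gene ends, and with 2 libraries a group no test could pass a threshold of 0.05.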
